A study of Mus musculus with 26 samples.

Results

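Testis RNA levels of 26 autosomal protein-coding genes set wild-type mice apart from both *10xPerf* and *10xBulge* mice, in the same direction in each line. They are 26 of 19069 eligible genes in a table of 51124. Of the eligible genes, 6 were higher in both lines (0.0315%) and 20 were lower in both lines (0.105%). A gene was taken as higher if the lowest of its 4 knock-in values was at least 20 and at least 3 times its highest wild-type value, and as lower if the same held with the genotypes exchanged. Eligible genes lie on chromosomes 1 to 19, are annotated as protein-coding, and have no name that begins with Rp or Gm or ends in Rik. Since the genes were chosen by the values of all 6 libraries, their differences from wild type are a description and carry no test.

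The libraries came from whole testes of adult mice, with 1 mouse per library and 2 libraries for each of 3 genotypes. Wild type is libraries N1 and N2, *10xPerf* is N3 and N4, and *10xBulge* is N5 and N6. Both homozygous knock-in lines carry 10 inserted sites for the pachytene piRNA piR-A. The sites are in the 3′UTR of *Ythdc2*, which encodes an RNA helicase needed for meiosis. The sites pair perfectly with piR-A in *10xPerf* and are mismatched at the 10th and 11th piRNA nucleotides in *10xBulge*. The lines were made with Cas9 in B6D2F1/J hybrid embryos, which are crosses of C57BL/6J and DBA/2J, and were kept by mating homozygous mice. The exact age, and the strain background of the sequenced wild-type mice, are not given in the sources used here. Nothing states that replicate mice came from separate litters, so the p-values measure the spread between these mice only. The mice of each knock-in line have consecutive mouse numbers, while the wild-type mice do not. If the mice of a line were littermates, litter and line cannot be told apart. The smallest p of an exact permutation test in this design, 2 mice against 2, is 0.333.

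A piRNA guides a PIWI protein to RNAs that it can pair with, and the PIWI protein MIWI or MILI can cut such a target. Whole testis holds germ cells at all stages together with Sertoli, Leydig, peritubular, vascular and immune cells, and it is known for transcribing many genes whose proteins work in other organs. An embryo of a hybrid between inbred strains carries a copy of each autosome from each strain, and its descendants can be left with either copy. Which strain's copy the sequenced mice carried at each of the 26 genes was not tested.

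Across the whole series, N5 and N6 stood apart: 34.4% of tested genes were called, that is had an adjusted p under 0.1 in limma, in *10xBulge* against wild type and 0.959% in *10xPerf* against wild type (0.467% higher and 0.492% lower). Spermatid marker genes summed to between 716445 and 934761 normalized counts in the 4 wild-type and *10xPerf* libraries and to 18142 and 12686 in *10xBulge*, and all 15 were lower in *10xBulge* than in *10xPerf* in limma at an adjusted p under 0.1. *Ythdc2* itself was at 827 and 2412 in wild type, 1334 and 1136 in *10xPerf* and at 1202 and 2458 in *10xBulge*, so that the genotypes overlapped. Depth was roughly 41.1 to 61.6 M reads per library, at which 3 reads are worth 2.73 to 3.63 normalized counts. The reads of 18S ribosomal RNA, *Rn18s*, ranged from 24801 to 2.41e+06 normalized counts, with the highest value in N1. In whole testis, fewer cells of a type and less RNA per cell cannot be told apart.

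Short stretches of 4 promoters are shown because they carry the motifs on which the promoters of the genes are compared further on. The sequences are from RefSeq on GRCm38.p6, 5′ to 3′ on the strand of the gene, with the motif in capitals. *Ren1* and *Defb15* hold TATAAA, at chr1:133350633-133350662 on the plus strand and chr8:21932728-21932757 on the minus strand. *Gzmg* and *Slc18a2* hold TGACGTCA, known as the cAMP response element, at chr14:56159638-56159667 on the minus strand and chr19:59260863-59260892 on the plus strand. A match is a description of the letters and not a bound site.
Ren1: atacatggtgtgTATAAAagaaggctcagg
Defb15: tctggagaagcgTATAAAggtgggtgggtg
Gzmg: cttaagtaatgTGACGTCAatcagaagcag
Slc18a2: agcgctgtccgTGACGTCAgagccggactg

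*Greb1l*, *Lhfpl3*, *Svopl*, *Gstp2*, *Ren1* and *Hspb8* were higher in both lines. Values are the normalized counts that the authors obtained with DESeq2, and differences are on the scale of log2(normalized count + 1), which understates the change of low genes. The medians of the 6 genes were 2.94 above wild type in *10xPerf* and 3.28 above it in *10xBulge*, against 0.02 and -0.03 over all 23782 genes tested. *Greb1l*, related to the estrogen-regulated *Greb1* and known for its part in kidney development, was at 67.5 and 90.7 in wild type, 620.2 and 590.5 in *10xPerf* and at 1086 and 1221 in *10xBulge*. The libraries of each genotype lay close together and the 3 genotypes did not overlap, with differences from wild type of 2.94 in *10xPerf* and of 3.86 in *10xBulge*. *Greb1l* lies on chromosome 18, as *Ythdc2* does, and 34.3 Mb from it in GRCm38.

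The enzyme genes among the 6 were *Ren1* and *Gstp2*. *Ren1*, which encodes renin, the protease that cuts angiotensinogen, was at 42.6 and 59.4 in wild type, 264 and 439.9 in *10xPerf* and at 257 and 644 in *10xBulge*. Both knock-in pairs spread widely and overlapped each other, with differences from wild type of 2.74 and 2.99. DBA/2 mice are known to carry another renin gene, *Ren2*, which is nearly identical to *Ren1* and not in the C57BL/6J reference, so reads from it could be counted as *Ren1*; whether these mice carried it was not tested. *Gstp2*, a pi-class glutathione S-transferase, was at 16.1 and 6.0 in wild type, at 88.8 and 426 in *10xPerf* and at 328 and 274 in *10xBulge*. Its *10xPerf* mice differed from each other by more than its *10xBulge* mice did, and the lines overlapped.

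The remaining higher genes encode membrane proteins and a chaperone. *Lhfpl3*, a tetraspan membrane protein of the LHFPL family, was at 3.36 and 7.23 in wild type, 178 and 120.4 in *10xPerf* and at 47.6 and 103.7 in *10xBulge*. Both of its *10xPerf* libraries were above both *10xBulge* libraries, and its *10xBulge* mice differed from each other by more than its *10xPerf* mice. *Svopl*, a putative transporter related to a synaptic vesicle protein, was at 7.17 and 7.99 in wild type, 51.5 and 82.9 in *10xPerf* and at 61.3 and 55.7 in *10xBulge*. *Hspb8*, a small heat shock protein, was at 32.8 and 39.8 in wild type, 138 and 255 in *10xPerf* and at 281 and 147 in *10xBulge*. For both genes the lines overlapped and the wild-type pair was tight.

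**Figure D1:**
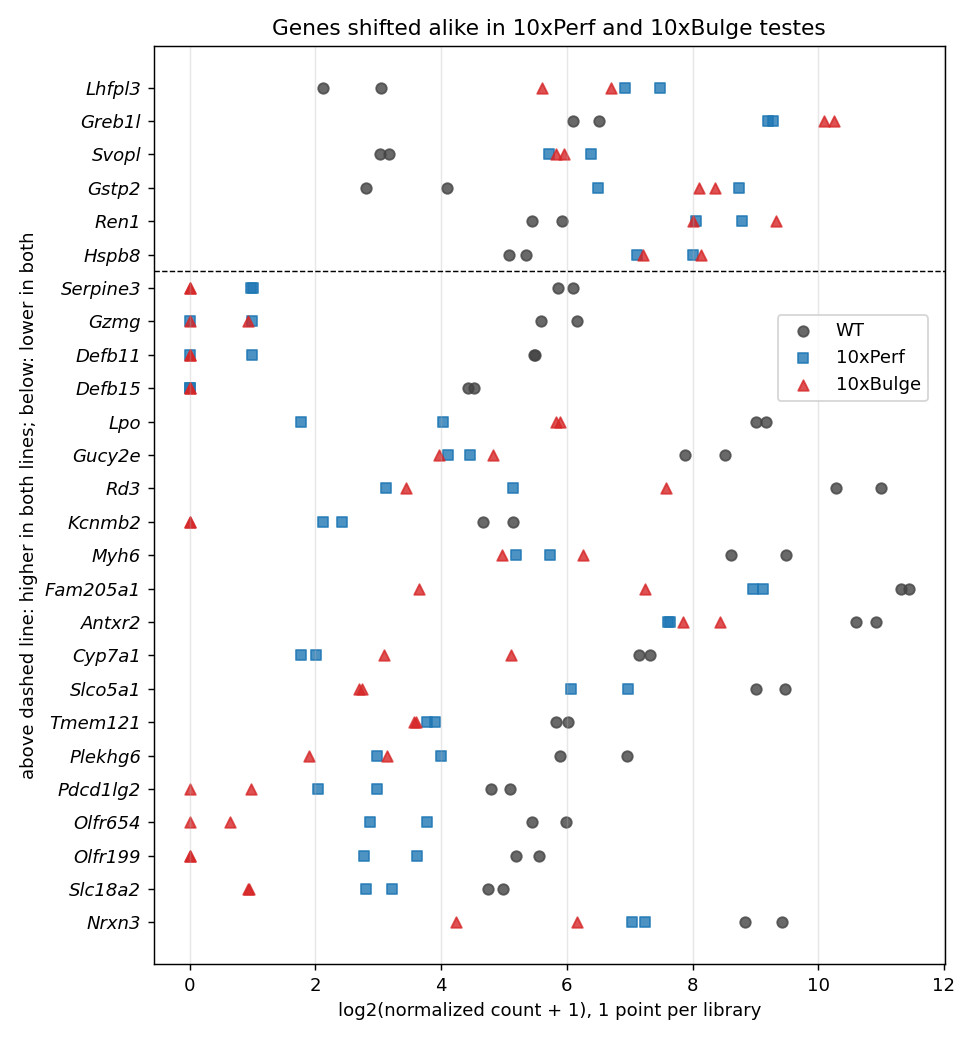
Log2(normalized count + 1) of the 26 genes on the horizontal axis, 1 point per library (grey circles wild type, blue squares *10xPerf*, red triangles *10xBulge*), with the 6 genes higher in both lines above the dashed line and the 20 lower genes under it. The wild-type points stand apart from all 4 knock-in points in each row because the genes were chosen for that, while the order of the knock-in lines differs from gene to gene.

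The 20 lower genes had medians of -3.03 in *10xPerf* and -4.47 in *10xBulge* against wild type. Their wild-type values ranged from 20.6 to 2782 normalized counts, with 8 genes at or above 200 in both wild-type libraries and 11 genes under 100 in at least 1. In 8 of the 20 a knock-in library was listed at 0, and in 4 (*Serpine3*, *Gzmg*, *Defb11* and *Defb15*) all 4 knock-in libraries were below the worth of 3 reads.

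The genes of a pair of defence peptides, a protease and a protease inhibitor were under the worth of 3 reads in all knock-in libraries. *Defb11* and *Defb15* encode beta-defensins, small antimicrobial peptides that the epididymis is known to make. *Defb11* was at 43.6 and 44.1 in wild type, 0.00 and 0.985 in *10xPerf* and was listed at 0 in both *10xBulge* libraries. *Defb15* was at 20.6 and 22.1 in wild type and listed at 0 in all 4 knock-in libraries. Both are on chromosome 8, 23.4 kb apart, and are the only pair of the 26 within 1 Mb. The 7 epididymis markers summed to between 142 and 259.7 in all libraries with overlapping genotypes, and 1 of them had enough counts to be tested. Some beta-defensin genes outside the 26 were detected in all libraries as well. The part of epididymis tissue in the values of *Defb11* and *Defb15* was not tested.

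*Gzmg*, a granzyme, which is a serine protease of killer lymphocytes, was at 70.8 and 47.1 in wild type, 0.00 and 0.984 in *10xPerf* and at 0.900 and 0.00 in *10xBulge*. *Serpine3*, of the serine protease inhibitor family, was at 57.1 and 67.9 in wild type and 1.01 and 0.974 in *10xPerf*, and was listed at 0 in *10xBulge*. At this depth neither gene was detectable above a level of 3 reads in any knock-in library. *Pdcd1lg2*, the ligand PD-L2 of the inhibitory receptor PD-1, was at 26.6 and 33.2 in wild type, 3.13 and 6.91 in *10xPerf* and at 0.00 and 0.958 in *10xBulge*. The 6 lymphocyte markers summed to 616 and 529 in wild type, 442 and 626 in *10xPerf* and to 345 and 331 in *10xBulge*. None of the 4 tested was called in *10xPerf* against wild type, and 1 was higher and 1 lower in *10xBulge* against wild type. Their part in the values of *Gzmg* and *Pdcd1lg2* was not tested.

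The enzymes *Lpo* and *Cyp7a1* were lowest in *10xPerf*. *Lpo*, which encodes lactoperoxidase, a peroxidase of milk and airway secretions, was at 573 and 517 in wild type, 2.40 and 15.4 in *10xPerf* and at 55.7 and 58.2 in *10xBulge*. *Cyp7a1*, the rate-limiting enzyme of bile acid synthesis, was at 158 and 141 in wild type, 3.01 and 2.40 in *10xPerf* and at 33.5 and 7.52 in *10xBulge*. For both genes each *10xBulge* library was above each *10xPerf* library and below wild type.

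A pair of the lower genes belongs to the retinal photoreceptor. *Gucy2e* encodes a guanylyl cyclase that restores cyclic GMP after light, and RD3 is the protein that binds retinal guanylyl cyclases, inhibits them and takes part in their transport. *Gucy2e* was at 365 and 234 in wild type, 16.2 and 21 in *10xPerf* and at 27.3 and 14.6 in *10xBulge*. *Rd3* was at 2048 and 1245 in wild type, 7.67 and 34.4 in *10xPerf* and at 191 and 9.84 in *10xBulge*. The 4 knock-in values of *Gucy2e* lay close together, whereas those of *Rd3* spread over 24.9-fold, with N5 the highest.

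Genes of muscle and nerve proteins were also lower. *Myh6*, the alpha myosin heavy chain of heart muscle, was at 716 and 389 in wild type, 35.6 and 52.1 in *10xPerf* and at 75.2 and 30.5 in *10xBulge*. *Nrxn3*, a presynaptic adhesion protein of the neurexin family, was at 682 and 455 in wild type, 150.1 and 129.9 in *10xPerf* and at 17.9 and 70.5 in *10xBulge*. *Myh6* overlapped between the lines, and *Nrxn3* was lower in both *10xBulge* libraries than in either *10xPerf* library. *Kcnmb2*, an auxiliary subunit of the calcium-activated BK potassium channel, was at 34.4 and 24.4 in wild type and 4.36 and 3.35 in *10xPerf*, and was listed at 0 in *10xBulge*. *Slc18a2*, the transporter that loads monoamines into synaptic vesicles, was at 30.5 and 25.7 in wild type, 8.30 and 5.95 in *10xPerf* and at 0.903 and 0.922 in *10xBulge*. In *10xBulge* both were below the worth of 3 reads.

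The olfactory receptor genes *Olfr654* and *Olfr199* were lower in both *10xBulge* libraries than in both *10xPerf* libraries. *Olfr654* was at 42.5 and 62.7 in wild type, 6.27 and 12.7 in *10xPerf* and at 0.00 and 0.561 in *10xBulge*. *Olfr199* was at 46.2 and 35.5 in wild type and 11.2 and 5.86 in *10xPerf*, and was listed at 0 in *10xBulge*. Some olfactory receptors are known to be made in testis. Olfactory and vomeronasal receptors are 2 of the 26 genes (7.69%) and 289 of the eligible genes that reached 20 normalized counts in 2 or more libraries (1.94%), a description with no test.

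Among the remaining membrane and signalling genes, *Slco5a1*, of the organic anion transporter family, was at 707 and 513 in wild type, 124 and 66.0 in *10xPerf* and at 5.50 and 5.71 in *10xBulge*. *Antxr2*, a receptor for anthrax toxin that binds collagen VI, was at 1552 and 1933 in wild type, 194 and 199.6 in *10xPerf* and at 345 and 229 in *10xBulge*. *Slco5a1* stepped down from genotype to genotype, and *Antxr2* did not reach the floor in any library. *Plekhg6* was at 123 and 58.5 in wild type, 15.0 and 6.90 in *10xPerf* and at 2.75 and 7.84 in *10xBulge*. *Tmem121*, a transmembrane protein, was at 64.1 and 55.6 in wild type, 12.7 and 14.0 in *10xPerf* and at 11.1 and 10.8 in *10xBulge*. The 4 knock-in values of *Tmem121* differed by at most 1.30-fold. *Fam205a1* was at 2537 and 2782 in wild type, 553 and 499.7 in *10xPerf* and at 151 and 11.5 in *10xBulge*, with N5 and N6 far apart.

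The 3-fold limit cut through a continuous range. The lower genes just inside it were *Nrxn3* (3.03-fold between the closest libraries), *Slc18a2* (3.10-fold) and *Olfr199* (3.16-fold). Just outside were *Kcnn2*, higher by 2.92-fold, and *Nlrp4e* and *Sox17*, lower by 2.92-fold and 2.91-fold. *Kcnn2*, a small-conductance potassium channel, was at 8.01 and 9.33 in wild type, 28.4 and 27.2 in *10xPerf* and at 39.2 and 38.4 in *10xBulge*. *Nlrp4e*, of the NLR family, was at 194 and 117 in wild type, 40.1 and 38.4 in *10xPerf* and at 0.272 and 0.569 in *10xBulge*, and *Sox17*, an endoderm and endothelial transcription factor, was at 1534 and 1078, 314 and 361, and 370.0 and 129. A further 15 eligible genes were higher and 25 lower at 2 to 3-fold. Without the wild-type library N2 the rule gave 105 higher and 69 lower genes, and without any other single library 11 to 14 higher and 23 to 36 lower.

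**Figure D2:**
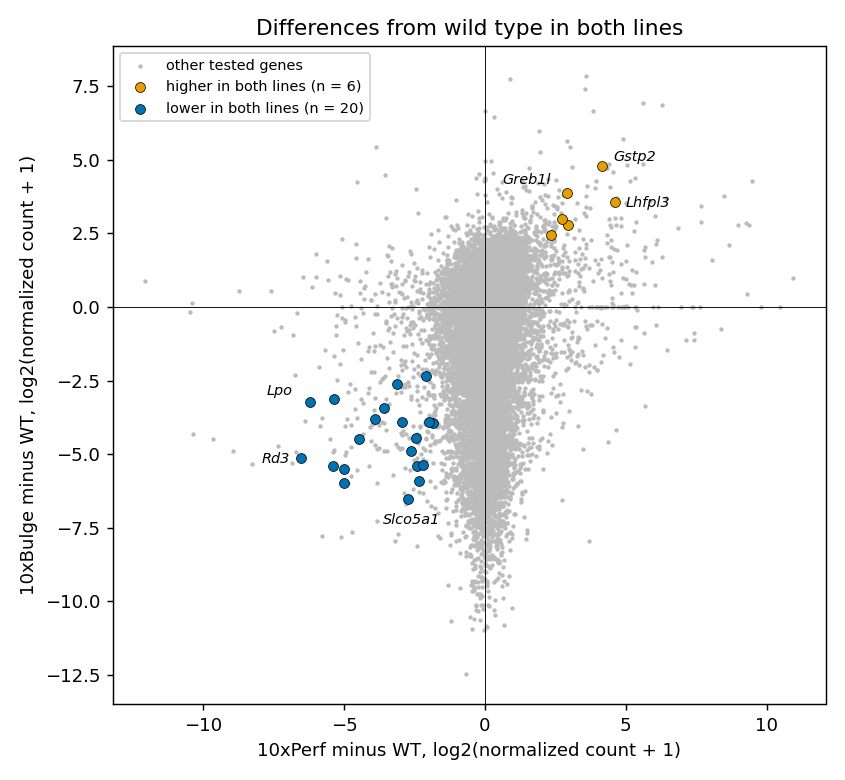
Difference from wild type in *10xPerf* (horizontal) and in *10xBulge* (vertical) on the scale of log2(normalized count + 1), 1 point per tested gene, with the 6 higher genes in orange and the 20 lower genes in blue. The chosen genes lie in the upper right and lower left by construction, and the wide vertical band of grey points shows how many more genes differed in *10xBulge* than in *10xPerf*; the comparisons share the wild-type libraries.

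The selection fixed no order between the knock-in lines, so the difference between *10xBulge* and *10xPerf* could be tested. The selection did limit the values of every knock-in library, so the sizes and spreads that enter this test are not free of it. The question is whether genes that moved alike against wild type also differed between the lines. Of the 26 genes, 10 differed (38.5%) in limma at an adjusted p under 0.1, against 37.0% of all 23782 genes tested. These shares are not on a like footing, since part of the 26 was tested only with the help of the wild-type values. Among the 15 that reached 10 normalized counts in at least 2 knock-in libraries, 4 differed (26.7%, against 37.2% of all genes under that condition). All 10 called genes were among the lower genes, 2 with a smaller and 8 with a larger difference from wild type in *10xBulge*. Over all genes, 12.9% were called higher and 24.1% lower in *10xBulge*.

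*Lpo* was 2.96 higher in *10xBulge* (SE 0.70, 95% interval 1.37 to 4.54, adjusted p = 0.0129, limma) and *Cyp7a1* 2.22 higher (SE 0.73, 0.57 to 3.86, adjusted p = 0.0497). *Slco5a1* had the smallest p, at 3.79 below *10xPerf* (log2 difference -3.79, SE 0.51, -4.94 to -2.65, adjusted p = 0.000437). *Fam205a1* (-3.59, adjusted p = 0.0190), *Olfr199* (-3.20, adjusted p = 0.00996) and *Olfr654* (-2.999, adjusted p = 0.0138) were also lower in *10xBulge*. The remaining 4 calls were *Kcnmb2* (-2.27, adjusted p = 0.0508), *Slc18a2* (-2.07, adjusted p = 0.0519), *Pdcd1lg2* (-2.03, adjusted p = 0.0833) and *Nrxn3* (-1.93, adjusted p = 0.0470). For each of these 10 genes both libraries of a line were on the same side of both libraries of the other. Both *10xBulge* libraries of *Olfr199*, *Olfr654*, *Kcnmb2*, *Slc18a2* and *Pdcd1lg2* were under the worth of 3 reads, so the sizes of these differences depend on the added 1; over the alternatives run, that of *Olfr199* ranged from -6.36 to -0.88 and that of *Kcnmb2* from -5.29 to -0.47. Of the 26 genes, 15 reached 10 normalized counts in at least 2 knock-in libraries, and the others passed the filter on low values only with the help of wild type. Of those 15, 4 were called (26.7%, against 37.2% of all genes under the same condition), namely *Lpo*, *Slco5a1*, *Fam205a1* and *Nrxn3*.

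Of the 6 higher genes, 0 differed between the lines in limma, and 1 had an unadjusted p under 0.05. That gene was *Greb1l*, 0.93 higher in *10xBulge* with a 95% interval of 0.04 to 1.82 (adjusted p = 0.112, limma). It was called in 2 of 15 alternatives, with libraries scaled to their totals (1.18, adjusted p = 0.0516), which moved the median of all genes from -0.07 to 0.18, and in a fit of only the knock-in libraries (0.93, adjusted p = 0.0959). In the other 13 it was not called, with adjusted p up to 0.318 without N3 and 0.282 without N4. *Lhfpl3* was at -1.05 (-2.43 to 0.33), *Gstp2* at 0.62 (-1.07 to 2.31), *Ren1* at 0.25 (-0.98 to 1.49), *Svopl* at -0.16 (-1.37 to 1.05) and *Hspb8* at 0.12 (-1.07 to 1.30). These intervals allow differences of more than 2-fold between the lines, so they do not show that the lines are alike. Median differences were 0.18 for the higher genes, -0.73 for the lower genes and -0.07 over all genes.

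**Figure D3:**
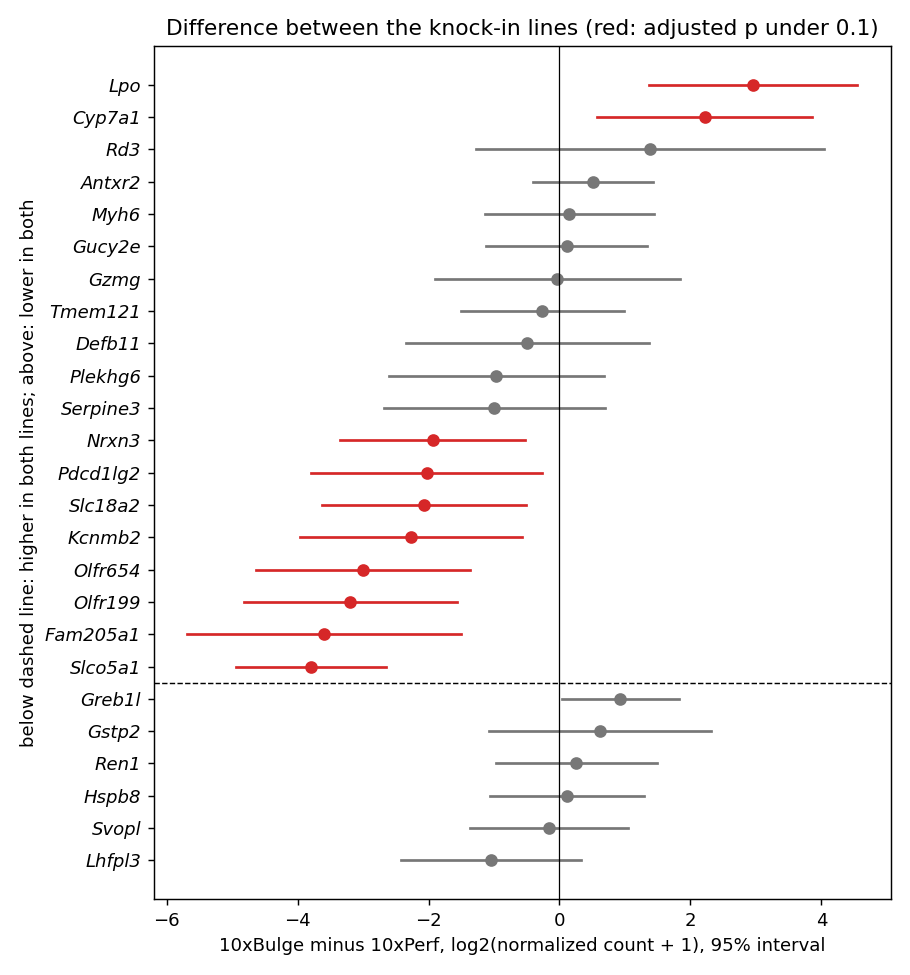
Difference between *10xBulge* and *10xPerf* on the scale of log2(normalized count + 1) with its 95% interval from limma for 25 of the genes; *Defb15* is left out because it is listed at 0 in all 4 libraries. Red marks an adjusted p under 0.1, and the 6 genes higher in both lines are under the dashed line, where no interval is red.

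The calls between the lines depended on single libraries for 6 of the 10 genes. *Lpo* and *Slco5a1* were called in all 14 alternatives in which they were tested. So were *Olfr199* and *Olfr654*, but these passed the filter on low values only with the help of wild type. Without N3, *Kcnmb2* (adjusted p = 0.157), *Slc18a2* (0.185), *Pdcd1lg2* (0.113), *Nrxn3* (0.254), *Fam205a1* (0.162) and *Cyp7a1* (0.183) were no longer called, and 3 of the 8 genes lower in *10xBulge* and 1 of the 2 higher were left. Without N4, 5 lower and 1 higher were called, and without N5, 4 lower and 1 higher. Without N1 or N2, 19 of the genes passed the filter on low values and 5 of those lower in *10xBulge* were called.

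Cell type markers changed between the lines as well. In *10xBulge* against *10xPerf*, 15 of 15 spermatid markers were lower, while 7 of 8 Leydig, 7 of 9 macrophage, 8 of 10 Sertoli and 6 of 12 spermatogonia markers were higher in limma at an adjusted p under 0.1. Over all genes, 12.9% were called higher and 24.1% lower. Fat markers were higher in 3 of 4, and peritubular markers in 2 of 5 with 1 lower. Spermatocyte markers were lower in 2 of 11 and lymphocyte markers in 1 of 4 tested, and 0 of 5 endothelial markers were called. Leydig markers, such as those of steroid synthesis, summed to between 46943 and 83129 in the wild-type and *10xPerf* libraries and to 319236 and 150962 in *10xBulge*. Macrophage markers summed to between 4535 and 8646 and to 19448 and 13902. No marker was at 0 in all libraries except 1 epididymis marker. The part of these shifts in the 10 differences between the lines was not tested.

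In *10xPerf* against wild type, where 0.959% of all tested genes were called, 0 of 96 tested genes of 13 marker and response lists were called in limma, and 5 had an unadjusted p under 0.05. Spermatid markers summed to 861841 and 934761 in *10xPerf* and to 913592 and 716445 in wild type, and so overlapped. Sertoli markers summed to 59941 and 85118 in *10xPerf*, both below the 85639 and 86945 of wild type, with no gene of the list called. None of the 26 genes was in any list. Fat markers summed to 299 and 553 in *10xPerf* and to 713 and 1204 in wild type, and interferon response genes to 1165 and 1304 in *10xPerf* and to 583 and 1105 in wild type, also with no gene called. The sums of the other 10 lists overlapped between *10xPerf* and wild type. The part of these lists in the values of the 26 genes was not tested.

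A list of genes known to differ between C57BL/6J and DBA/2J was examined because the lines were founded in hybrid embryos. *H2-Ea*, a class II histocompatibility gene that is silent in strains of the H2-b haplotype such as C57BL/6J, was at 72.3 and 60.1 in wild type, 0.00 and 2.96 in *10xPerf* and at 388 and 288 in *10xBulge*. It was lower in *10xPerf* than in wild type (-5.07, adjusted p = 0.0139, limma), higher in *10xBulge* than in wild type (2.32, adjusted p = 0.0368) and differed between the lines (7.40, adjusted p = 4.73e-05). The macrophage markers, whose cells express class II genes, summed to 4535 and 6014 in wild type, 5141 and 8646 in *10xPerf* and to 19448 and 13902 in *10xBulge*. The part of macrophages or of strain in the values of *H2-Ea* was not tested. *Glo1*, glyoxalase 1, was at 1084 and 1253 in wild type, 1196 and 1080.4 in *10xPerf* and at 2061 and 2483 in *10xBulge*, higher in *10xBulge* than in *10xPerf* (0.99, adjusted p = 0.0775) and than in wild type (0.96, adjusted p = 0.0918).

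*Gpnmb*, a glycoprotein of macrophages and pigment cells, was at 14.5 and 4.18 in wild type, 21.6 and 12.4 in *10xPerf* and at 55.7 and 80.0 in *10xBulge* (1.96 between the lines, adjusted p = 0.0637, and 2.92 against wild type, adjusted p = 0.0137). *Alad*, of haem synthesis, was at 1710.2 and 1304 in wild type, 2408 and 4283 in *10xPerf* and at 3090 and 2326 in *10xBulge*, without a call in any comparison. *Nnt*, the mitochondrial transhydrogenase, has 2 entries, and neither was called. The first was at 1373 and 1047 in wild type, 1559 and 1157 in *10xPerf* and at 1783 and 1694 in *10xBulge*, and the other was at 537 and 1366, 1349 and 2155, and 1968 and 1211. *Hc*, complement C5, was at 49.2 and 10.9 in wild type, 51.8 and 15.3 in *10xPerf* and at 6.10 and 55.2 in *10xBulge*, without a call. *Klrd1*, a killer cell lectin receptor, was above 0 in N4 (2.76) and N6 (2.08), and *Gabra2*, a GABA receptor subunit, in N2 (1.79), N4 (1.68) and N6 (1.16), and neither could be tested. *H2-Ea* was the gene of the list that was called in *10xPerf* against wild type.

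**Figure D4:**
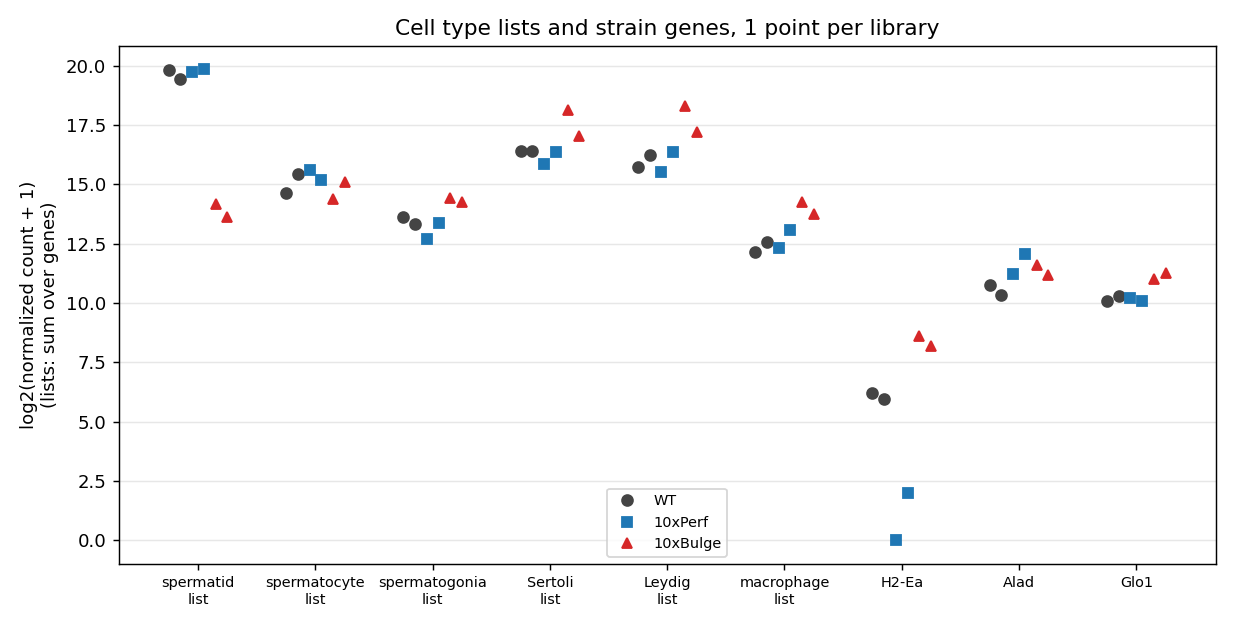
Log2 of the summed normalized counts + 1 of 6 cell type marker lists, and of *H2-Ea*, *Alad* and *Glo1*, 1 point per library (grey circles wild type, blue squares *10xPerf*, red triangles *10xBulge*). Spermatid sums are low only in the *10xBulge* libraries among the 6, and *H2-Ea* is lowest in *10xPerf* and highest in *10xBulge*.

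The 26 genes lie on 13 chromosomes, with at most 3 on any of them. Positions are from GRCm38, while the deposited table was made on GRCm39, and none was converted. Of the 26, 2 (7.69%) had another of the genes within 1 Mb, compared with 3.77% of 14918 eligible genes that reached 20 normalized counts in 2 or more libraries. Within 5 Mb the shares were 4 of 26 (15.4%) and 12.2%, the added pair being *Myh6* and *Gzmg*, 1.19 Mb apart on chromosome 14.

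Genes near the 26 were not used to choose them and were tested. Within 1 Mb lay 790 tested genes, of which 125 (15.8%) differed between both lines together and wild type in limma at an adjusted p under 0.1, the same share as among all tested genes (15.8%, with 2.34% higher and 13.5% lower). The count was 47 without N1, 80 without N2 and 75 without N4, which are 6.06%, 10.2% and 9.63% of the nearby genes tested, and the shares among all genes fell alike, to 5.70%, 10.1% and 9.60%. Of the 125, 16 were higher and 109 lower in the mean of both lines. In *10xBulge* against wild type alone, 234 of the 790 were called (29.6%, against 34.4% of all genes). In *10xPerf* against wild type alone, 12 of the 790 were called (1.52%, against 0.959% of all genes), 11 of them lower. This count fell without N1, N2, N3 or N4 and rose without N5 or N6, and the share called among all genes moved in the same direction each time.

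Of those 12 genes, 6 lie near *Fam205a1* on chromosome 4, and all 6 were lower in *10xPerf*. *Il11ra2*, an interleukin 11 receptor gene 186 kb away, was at 237 and 131 in wild type, was listed at 0 in both *10xPerf* libraries and was at 109 and 91.2 in *10xBulge* (adjusted p = 0.000829 in *10xPerf* against wild type and 2.79e-05 between the lines, limma). *Gm13306*, 689 kb away, was at 2299 and 1890 in wild type, 68.4 and 106 in *10xPerf* and at 341 and 267 in *10xBulge*, and shares sequence with *Ccl27b*, so its reads are uncertain. *Ccl21d*, a chemokine gene, was at 169 and 139 in wild type, 0.00 and 14.5 in *10xPerf* and at 128 and 73.1 in *10xBulge*. *Gm2163*, which shares sequence with *Gm3892*, and *Gm3883* and *Gm13306* were called lower in *10xBulge* against wild type as well. *Gm5859* was at 77.6 and 162 in wild type, was listed at 0 in both *10xPerf* libraries and was at 71.5 and 46.3 in *10xBulge*. *Fam205a1* itself was lowest in *10xBulge*, an order opposite to that of *Il11ra2*.

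Direct neighbours moved with some of the genes and against others. *Atp6v0a4*, a proton pump subunit 1.49 kb from *Svopl*, was at 7.43 and 11.96 in wild type, 23.5 and 32.0 in *10xPerf* and at 193 and 169.9 in *10xBulge*, higher in both lines together by 2.78 (adjusted p = 0.00407, limma). *Mpo*, the myeloperoxidase gene 2.02 kb from *Lpo*, was at 25.5 and 49.4 in wild type, 129 and 189.6 in *10xPerf* and at 125 and 105 in *10xBulge*. It rose by 1.88 (adjusted p = 0.0229), in the direction opposite to *Lpo*. In *10xPerf* against wild type alone neither *Atp6v0a4* nor *Mpo* was called (adjusted p = 0.182 for *Mpo*, limma). *Gstp1*, 2.30 kb from *Gstp2* and of the same enzyme class, was at 2682 and 1725 in wild type, 1222 and 2254 in *10xPerf* and at 5029 and 3403 in *10xBulge*, without a call (0.28, adjusted p = 0.721).

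Near *Gzmg*, *Gzmd* was at 68.3 and 79.4 in wild type, 16.7 and 24.6 in *10xPerf* and at 3.61 and 0.959 in *10xBulge*, and *Gzmn* at 642 and 579, 679 and 787, and 7.01 and 4.87. Both granzyme genes were lower over the lines, by -3.22 (adjusted p = 0.00594, limma) and -3.11 (adjusted p = 0.00109), but *Gzmn* in *10xPerf* was not below wild type. Neither was called in *10xPerf* against wild type alone (adjusted p = 0.637 for *Gzmd* and 0.896 for *Gzmn*, limma). *Abhd3*, a lipase-family gene 79.2 kb from *Greb1l*, was at 304 and 293 in wild type, 366 and 492 in *10xPerf* and at 937 and 1143 in *10xBulge*, higher over the lines by 1.15 (adjusted p = 0.0635). In *10xPerf* against wild type alone *Abhd3* was not called. *Esco1*, a cohesin acetyltransferase gene 3.57 kb from *Greb1l*, was not called (0.31, adjusted p = 0.722). *Pianp*, 359.6 kb from *Plekhg6* and a neuronal ligand of PILR alpha, was at 272 and 328 in wild type, 11.7 and 17.3 in *10xPerf* and at 478 and 452 in *10xBulge*. It was lower in *10xPerf* than in wild type (-4.29, adjusted p = 0.00347, limma) and higher in *10xBulge* than in *10xPerf* (4.93, adjusted p = 3.53e-05).

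**Figure D5:**
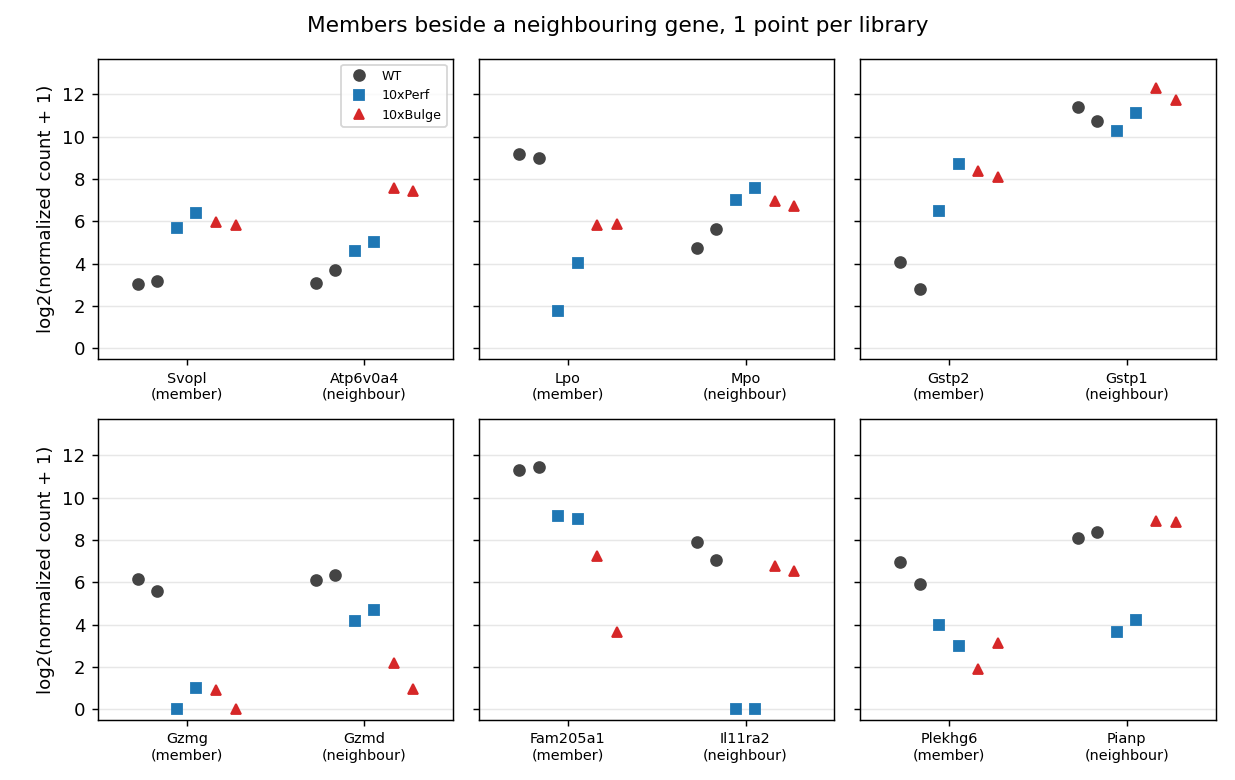
Log2(normalized count + 1) of 6 of the genes and of a gene near each, 1 point per library (grey circles wild type, blue squares *10xPerf*, red triangles *10xBulge*). *Atp6v0a4* was higher in both lines, as *Svopl* was, *Mpo* went against *Lpo*, and *Il11ra2* and *Pianp* were lowest in *10xPerf*.

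The 10 genes with the largest difference between both lines together and wild type within 1 Mb were all lower in the mean of the lines. In 5 of them at least 1 *10xPerf* library was within or above the range of wild type, and the *10xBulge* values were far below it. *Spem1* and *Spem2*, spermatid genes near *Gucy2e*, were at 33633 and 22822 and at 25837 and 19682 in wild type, at 17108 and 24152 and at 23221 and 24741 in *10xPerf*, and at 39.99 and 28.2 and at 35.5 and 33.3 in *10xBulge*. The ubiquilin genes *Ubqlnl* and *Ubqln5* near *Olfr654* had the same pattern. *Ubqlnl* was at 8614 and 12088 in wild type, 10552 and 10767 in *10xPerf* and at 12.5 and 14.3 in *10xBulge*, and *Ubqln5* was at 5802 and 3665, 3484 and 3782, and 18.2 and 4.84. *Gm5901* near *Olfr654* was at 9675 and 6685 in wild type, 4249 and 5921 in *10xPerf* and at 0.679 and 0.182 in *10xBulge*, and *1700065J18Rik* near *Rd3* was at 309 and 269 in wild type and 173 and 366 in *10xPerf*, and was listed at 0 in *10xBulge*.

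In others both lines were low. *Olfr193*, 102 kb from *Olfr199*, was at 14.2 and 31.9 in wild type and listed at 0 in all 4 knock-in libraries (adjusted p = 0.00523 for both lines, limma). *1700040E09Rik*, 57.5 kb from *Nrxn3*, was at 112 and 81.3 in wild type, 27.5 and 17.5 in *10xPerf* and listed at 0 in *10xBulge*. *Eif1ad2*, near *Nrxn3*, and *Gm13841*, near *Hspb8*, differed between the mice of a line: *Gm13841* was at 1357 and 1240 in wild type, listed at 0 in *10xPerf* and at 1101 and 2.91 in *10xBulge*, and *Eif1ad2* was at 112 and 118, 3.08 and 0.00, and 48.2 and 0.00. *Gm13841* shares sequence with *Gm8210*, so its reads are uncertain.

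Relatives of the 26 genes by name were compared next. Of 70 tested genes with the same name stem, 0 were called in *10xPerf* against wild type in limma (0.959% of all genes) and 7 had an unadjusted p under 0.05 (10%, against 6.09% of all genes). In *10xBulge* against wild type 23 were called (32.9%, against 34.4% of all tested genes). In 14 of the 70 (20%) the knock-in libraries did not overlap wild type, 4 above and 10 below it, against 15.1% of all tested genes. *Mpo* and *Gzmd*, described above, were among the 14.

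Promoters were matched by symbol for 21 of the 26 genes in RefSeq, from 250 bases before to 50 after the gene start. Their median GC content was 52.7%, with a median of 5 CpG dinucleotides, against 60% and 19 in 11834 promoters of eligible genes that reached 20 normalized counts in 2 or more libraries. Over all 27025 promoters the medians were 52.7% and 7, near those of the 21. TATAAA, searched on both strands as all the motifs were, was in 5 of the 21 (23.8%, against 8.53%), among them *Ren1* and *Defb15* above. Counted from the gene start, it began at -29 in *Ren1* and at -35 in *Defb15*. It began at -62 in *Antxr2*, at 1 in *Myh6* and at 24 on the opposite strand in *Olfr654*. TGACGTCA was in 2 (9.52%, against 2.92%), those of *Gzmg* and *Slc18a2*. GGGCGG was in 7 (33.3%, against 59.1%) and CCAAT in 2 (9.52%, against 38.4%). Of all 27025 promoters, 14.2% held TATAAA, 1.88% TGACGTCA, 35.9% GGGCGG and 37.9% CCAAT, so the share with GGGCGG was near that of the 21. These are descriptions with no test, and no match says only that the letters are not in the window.

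Rows that met the limits on values but not those on name, class or chromosome numbered 64, with 6 higher and 58 lower. Of the 64, 36 were long noncoding RNAs, all lower, and 12 were protein-coding. Of the 58 lower rows, 13 were on chromosome Y and 13 on chromosome 5. The share of all rows of a class or chromosome that met the limits was not computed, so these counts only describe.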

How the data were processed

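Total RNA of adult mouse testes was depleted of ribosomal RNA and sequenced with a stranded kit. The authors assigned the reads with salmon, with its GC correction, to GRCm39 with the Ensembl annotation, and deposited DESeq2-normalized counts per gene and library, a signal that is not whole reads. The values of 17.6% of genes were whole multiples of a step in every library (tolerance 0.001), so reads were not recovered and a count test was not run. The same table holds the authors' mean, their log2 fold changes and their p-values for each knock-in line against wild type, which the authors deposited and which were not used. The piRNA libraries of the series were not analysed here. Versions of salmon and DESeq2 are not given in the sources used here.

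The 23782 genes that reached 10 normalized counts in 2 or more libraries were fitted as log2(value + 1) in limma 3.58.1 (R 4.3.3), with a term per genotype, a mean-variance trend and Benjamini-Hochberg adjustment over all genes at 0.1, the threshold of the study. Approximate depth (41.1 to 61.6 M reads) is the sum of a library over the worth of 1 read, and the floor of 3 reads covers counting error only. The fit was also run on data simulated with normal noise, a check of the code that gives no error rate for these data. Groups came from the sample labels.

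The 26 genes and all lists were chosen with earlier results of these data known. The name, marker and strain lists describe, and relatives by name and promoters were added after the genes were known. All 26 genes are named. Per-library values are given for all of them, for the 3 genes just outside the limit, for the strain list and for the 10 nearby genes with the largest called difference. Other nearby genes and relatives named (*Atp6v0a4*, *Mpo*, *Gstp1*, *Gzmd*, *Gzmn*, *Abhd3*, *Esco1*, *Pianp*, the genes near *Fam205a1*) were chosen after their values were seen. Positions are GENCODE M21 on GRCm38, matched by Ensembl identifier, for 23599 of the tested genes. Promoters are RefSeq sequences on GRCm38.p6. The alternatives were other scalings (library totals, upper quartile), filters, pseudocounts, limits of the selection and windows, no trend, a fit of the knock-in libraries only, an adjusted p of 0.05, and leaving out each library.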

Additional observations from a re-analysis of the deposited data

Results flagged for a closer look

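In 10 genes the difference from wild type was not of the same size in *10xPerf* and *10xBulge*, by a test of the difference between the lines (limma, adjusted p under 0.1 over all 23782 genes). Their log2 differences, *10xBulge* minus *10xPerf*, were 2.96 for *Lpo* and 2.22 for *Cyp7a1*, which were less reduced in *10xBulge*. They were -3.79 for *Slco5a1*, -3.59 for *Fam205a1*, -3.20 for *Olfr199*, -2.999 for *Olfr654*, -2.27 for *Kcnmb2*, -2.07 for *Slc18a2*, -2.03 for *Pdcd1lg2* and -1.93 for *Nrxn3*, which were more reduced in *10xBulge*. In *Olfr199*, *Olfr654*, *Kcnmb2*, *Slc18a2* and *Pdcd1lg2* both *10xBulge* libraries were under the worth of 3 reads, so these sizes depend on the pseudocount. The share of the 26 genes called was 38.5%, beside 37.0% of all genes, but part of the 26 was tested only with the help of wild-type values. Of the 26, 15 reached 10 normalized counts in at least 2 knock-in libraries, and 4 of these were called. They were *Lpo*, *Slco5a1*, *Fam205a1* and *Nrxn3* (26.7%, against 37.2% of all genes under that condition). The others of the 10 passed the filter on low values only with the help of wild type. *Lpo*, *Slco5a1*, *Olfr199* and *Olfr654* were called in all alternatives in which they were tested, and the other calls were lost in some.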

How the results depend on the processing

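The number of genes that met the rule moved with its limits. A fold of 2 gave 21 higher and 45 lower genes, a fold of 4 gave 13 lower and a floor of 50 gave 12 lower. Leaving out each library in turn gave 11 to 105 higher and 23 to 69 lower, the upper values without N2. Library totals gave 9 higher and 16 lower genes (6 and 16 of them among the 26), and the upper quartile 7 and 21 (6 and 17). Library totals moved the median of all genes to 0.15 in *10xPerf*, 0.36 in *10xBulge* and 0.18 between the lines.

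Between the lines, a filter of 10 in every library left 9 of the 26 genes, of which 0 were called higher and 2 lower in *10xBulge*. With the condition of 10 in 2 knock-in libraries, chosen after seeing the data, 1 higher and 3 lower of 15 were called. A pseudocount of 10 and an adjusted p under 0.05 each gave 5 called lower. Leaving out each library gave 1 to 3 called higher and 3 to 6 lower. Of genes within 1 Mb, 125 of 790 were called for both lines together (15.8%), 77 of 639 with the filter of 10 in every library (12.1%, against 10.3% of all genes), 73 of 440 within 0.5 Mb (16.6%), 216 of 1365 within 2 Mb (15.8%), and 47 to 148 without a library. In *10xPerf* alone the 12 became 5 with that filter and 3 to 19 without a library. Genes with another of the 26 nearby rose from 2 to 4 at 5 Mb. The causes were not tested. No value changed sign past a threshold in the alternatives run. Of the differences of the 26 genes from wild type recomputed under the alternatives, 527 stayed within the spread between replicates and 87 did not.

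With 2 mice per genotype, the size of a difference that rests on values under 3 reads is not fixed by the data, and small differences between the lines can be missed. No paired analysis was possible because the labels give each library a number of its own, so the genotypes share no replicate numbers.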
